A study of Mus musculus with 24 samples.

Results

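The 9 genes Tnmd, Kera, Fmod, Chad, Comp, Cilp2, Thbs4, Scx and Mkx are commonly used as marks of tendon and of tenocytes, the fibroblasts that build it. They were followed by gene name in a count table of 43346 genes from gastrocnemius, the large calf muscle, and all 9 were found and all 9 passed the filter on low counts. Poly(A) RNA had been sequenced from C57BL6 mice in 4 groups of 6 libraries: male LLC1, male vehicle, female LLC1 and female vehicle. LLC1 mice had been given, under the skin, cells of a mouse Lewis lung carcinoma line at 7 weeks of age, and vehicle mice had been given phosphate-buffered saline; the muscle was taken 3 weeks later. The LLC1 line is a single transplanted tumour line in 1 mouse strain, and no transgene or mutant allele is named for any mouse. Each title carries a number of its own within a group, such as 2-1, so a library was taken as 1 mouse, although nothing further says that the mice were housed or dissected separately.

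Tendon joins muscle to bone and consists mostly of type I collagen fibrils. Scx (scleraxis) and Mkx (mohawk) are transcription factors of the tendon lineage. Tnmd (tenomodulin) is a membrane glycoprotein of mature tenocytes. Fmod (fibromodulin), Kera (keratocan) and Chad (chondroadherin) are leucine-rich repeat proteins that bind collagen, and Fmod and Kera are small leucine-rich proteoglycans that govern fibril growth. Comp (cartilage oligomeric matrix protein) and Thbs4 (thrombospondin 4) are pentameric thrombospondins, and Thbs4 is also found in skeletal muscle. Cilp2 is a matrix protein related to cartilage intermediate layer protein. The gastrocnemius ends in tendon and is divided by connective tissue, and the labels do not say how much tendon was kept with the muscle.

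The libraries held between 26.2 and 47.4 M (mega-counts) in total. Levels are given in CPM, that is, counts per mega-count after scaling of the library size. A group's 6 libraries all came from 1 sequencing lane, which no other group used; the effect of a lane and that of a group cannot be told apart. Of defining markers of cartilage, Snorc had 0 counts in every library and Acan reached at most 0.133 CPM; of bone, Ibsp had 0 counts and Bglap reached at most 0.055 CPM. Other markers of those lists were present: 6 of 13 cartilage markers passed the filter, with Col11a2 at up to 22.5 CPM and Col2a1 at up to 1.88 CPM, and 3 of 7 bone markers passed it, with Alpl at up to 13.4 CPM.

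Thbs4 and Fmod were the most abundant members and Mkx the least. Per kilobase of exon, Fmod averaged 20.2 ± 5.43 CPM in male LLC1, 50.9 ± 30.8 CPM in male vehicle, 36.2 ± 29.5 CPM in female LLC1 and 41.1 ± 24.4 CPM in female vehicle mice (SD, n = 6 each). Thbs4 averaged 34.9 ± 7.53, 44.5 ± 20.5, 57.3 ± 41.4 and 36 ± 13.8 CPM per kilobase in the same 4 groups. The ranges of Thbs4 and Fmod overlapped in every group, least in male LLC1 mice, where the lowest Thbs4 level was 23.8 and the highest Fmod level 27.1 CPM per kilobase. In male vehicle mice Chad followed at 15 ± 12.9 CPM per kilobase and Tnmd at 13.8 ± 6.78, then Kera at 8.51 ± 3.08 and Comp at 5.59 ± 3.91. Cilp2 at 2.23 ± 1.70 and Scx at 2.17 ± 0.75 did not differ beyond their spread, and Mkx stood at 0.506 ± 0.253 (SD, n = 6 each). The lowest raw count of any member in any library was 7, for Mkx, so Mkx is the member on which counting error weighs most.

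The members' positions are those of the deposited table, on mm10. Fmod lies on chromosome 1 from 134037254 to 134048277, Kera on chromosome 10 from 97607205 to 97613688, Chad on chromosome 11 from 94565047 to 94569127 and Thbs4 on chromosome 13 from 92751590 to 92794818. Scx lies on chromosome 15 from 76457438 to 76459468, Tnmd on chromosome X from 133850980 to 133865577, and Cilp2 and Comp both lie on chromosome 8, from 69880369 to 69887687 and from 70373548 to 70382065. All are protein-coding genes, and in GENCODE M21 none of these 8 shared exon sequence with another gene.

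Because the members varied together between libraries, the stretch of 250 bases before the start of transcription is shown for the abundant pair Thbs4 and Fmod and for the collagen-binding genes Chad and Kera. The sequences are from RefSeq on build GRCm38.p6, whose promoter table held 6 of the 9 members. Capitals mark E-boxes, the letters CANNTG searched on both strands, a motif that scleraxis and other basic helix-loop-helix factors are known to bind. They lie at chr13:92794819-92795068 on the minus strand for Thbs4, and on the plus strand at chr1:134037004-134037253 for Fmod, chr11:94564797-94565046 for Chad and chr10:97606955-97607204 for Kera.
Thbs4: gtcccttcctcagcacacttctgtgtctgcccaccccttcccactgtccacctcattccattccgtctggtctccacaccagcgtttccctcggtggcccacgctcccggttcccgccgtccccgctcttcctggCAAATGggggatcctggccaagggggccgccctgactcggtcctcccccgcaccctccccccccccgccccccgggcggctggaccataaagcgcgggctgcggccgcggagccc
Fmod: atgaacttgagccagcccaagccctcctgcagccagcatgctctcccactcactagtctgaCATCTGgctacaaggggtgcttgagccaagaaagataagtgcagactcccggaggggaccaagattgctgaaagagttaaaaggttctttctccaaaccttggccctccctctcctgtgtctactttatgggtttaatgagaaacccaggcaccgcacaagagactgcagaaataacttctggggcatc
Chad: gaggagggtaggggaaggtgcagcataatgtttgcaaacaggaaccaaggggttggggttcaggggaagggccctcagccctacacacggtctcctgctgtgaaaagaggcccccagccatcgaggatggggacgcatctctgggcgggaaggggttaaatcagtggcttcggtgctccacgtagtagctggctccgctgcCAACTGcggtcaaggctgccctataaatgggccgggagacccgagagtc
Kera: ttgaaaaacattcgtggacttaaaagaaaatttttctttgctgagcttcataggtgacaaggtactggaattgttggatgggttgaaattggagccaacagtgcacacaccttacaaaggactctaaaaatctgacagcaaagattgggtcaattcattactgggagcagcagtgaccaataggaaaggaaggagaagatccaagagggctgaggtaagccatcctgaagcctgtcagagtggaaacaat
Thbs4, Fmod and Chad held 1 E-box each, as did Cilp2, and the windows of Kera and Tnmd held 0. Among 27025 promoter windows of the same length 66% held at least 1, so 4 of 6 is near the background. The E-box of Fmod was the only one of these 4 spelled CATCTG or CAGATG, a spelling that 14.5% of all windows held. No match says only that these letters are not in this window.

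In males, the LLC1 libraries held less RNA of most members. Of the 9 members 5 were called lower in LLC1 than in vehicle males (Tnmd, Kera, Cilp2, Chad and Fmod), where called means an adjusted p under 0.05 in the quasi-likelihood test of edgeR fitted over 17773 genes. The background for that count is high: 36.3% of all genes were called in males, 16.8% of them as lower. The median log2 fold change over the 9 members was -1.33, and over all genes tested it was 0.01. In these bulk muscle samples fewer tenocytes, less RNA per tenocyte, less tendon kept with the muscle and an effect of the lane cannot be told apart.

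Tnmd, the gene most closely tied to mature tenocytes, ranged from 1.4 to 6.43 CPM with a median of 4.80 in LLC1 males, against 6.39 to 32.1 CPM with a median of 16.0 in vehicle males. The highest LLC1 library and the lowest vehicle library were all but level, and the groups met only there. The log2 fold change was -2.15 ± 0.58 (SE; edgeR adjusted p = 0.0065), a level 0.226 times that of vehicle males. Kera, a keratan sulfate proteoglycan also known from the cornea, ranged from 1.10 to 6.45 CPM (median 4.77) in LLC1 males and from 8.57 to 26.2 CPM (median 16.9) in vehicle males. These 2 sets of 6 libraries did not overlap. Kera was 0.246 times the vehicle level (log2 fold change -2.02 ± 0.56, edgeR adjusted p = 0.0078).

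Cilp2 ranged from 1.32 to 3.02 CPM (median 2.13) in LLC1 males and from 3.51 to 22.5 CPM (median 6.72) in vehicle males, again without overlap. Its log2 fold change of -2.19 ± 0.53 had the lowest edgeR adjusted p among the members in males, 0.00338. Kera and Cilp2 were the only 2 of 9 members whose male groups did not overlap in CPM, and 10.3% of all genes tested had non-overlapping male groups. Chad, which binds collagen and integrin, ranged from 2.78 to 10.2 CPM (median 4.75) in LLC1 males against 5.20 to 61.9 CPM (median 16.5) in vehicle males, and the groups overlapped. It was called lower with a log2 fold change of -2.11 ± 0.67 (edgeR adjusted p = 0.0183), but not when vehicle library 1-3 was left out (-1.63, adjusted p = 0.0639). Fmod ranged from 46.2 to 89.7 CPM (median 61.9) in LLC1 males and from 64.6 to 346 CPM (median 128) in vehicle males. Its call was the least firm of the 5: the log2 fold change was -1.33 ± 0.50 (edgeR adjusted p = 0.043), and the call was lost when any of 7 single male libraries was left out, LLC1 1-4, 1-5, 2-1 and 2-4 and vehicle 1-1, 1-3 and 1-4 (adjusted p of 0.05 to 0.132).

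The remaining 4 members did not pass the test in males. Comp had 3.83 to 8.55 CPM in LLC1 males and 3.90 to 28.6 CPM in vehicle males (log2 fold change -1.22 ± 0.54, edgeR adjusted p = 0.0828), and it passed only without vehicle library 2-5 (-1.41, adjusted p = 0.0482) or when the fit held only the 12 male libraries. Mkx had 0.798 to 1.55 CPM in LLC1 males and 0.893 to 3.62 CPM in vehicle males (-0.83 ± 0.46, edgeR adjusted p = 0.158), and it too passed with only the 12 male libraries in the fit. Thbs4 had 78.3 to 144 CPM in LLC1 males, within the range of 73.3 to 264 CPM in vehicle males (-0.35 ± 0.40, edgeR adjusted p = 0.526). Scx had 1.18 to 3.84 CPM in LLC1 males and 1.36 to 3.56 CPM in vehicle males (-0.08 ± 0.23, edgeR adjusted p = 0.803). The spread between libraries was wide against the changes of these 4 genes.

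**Figure D1:**
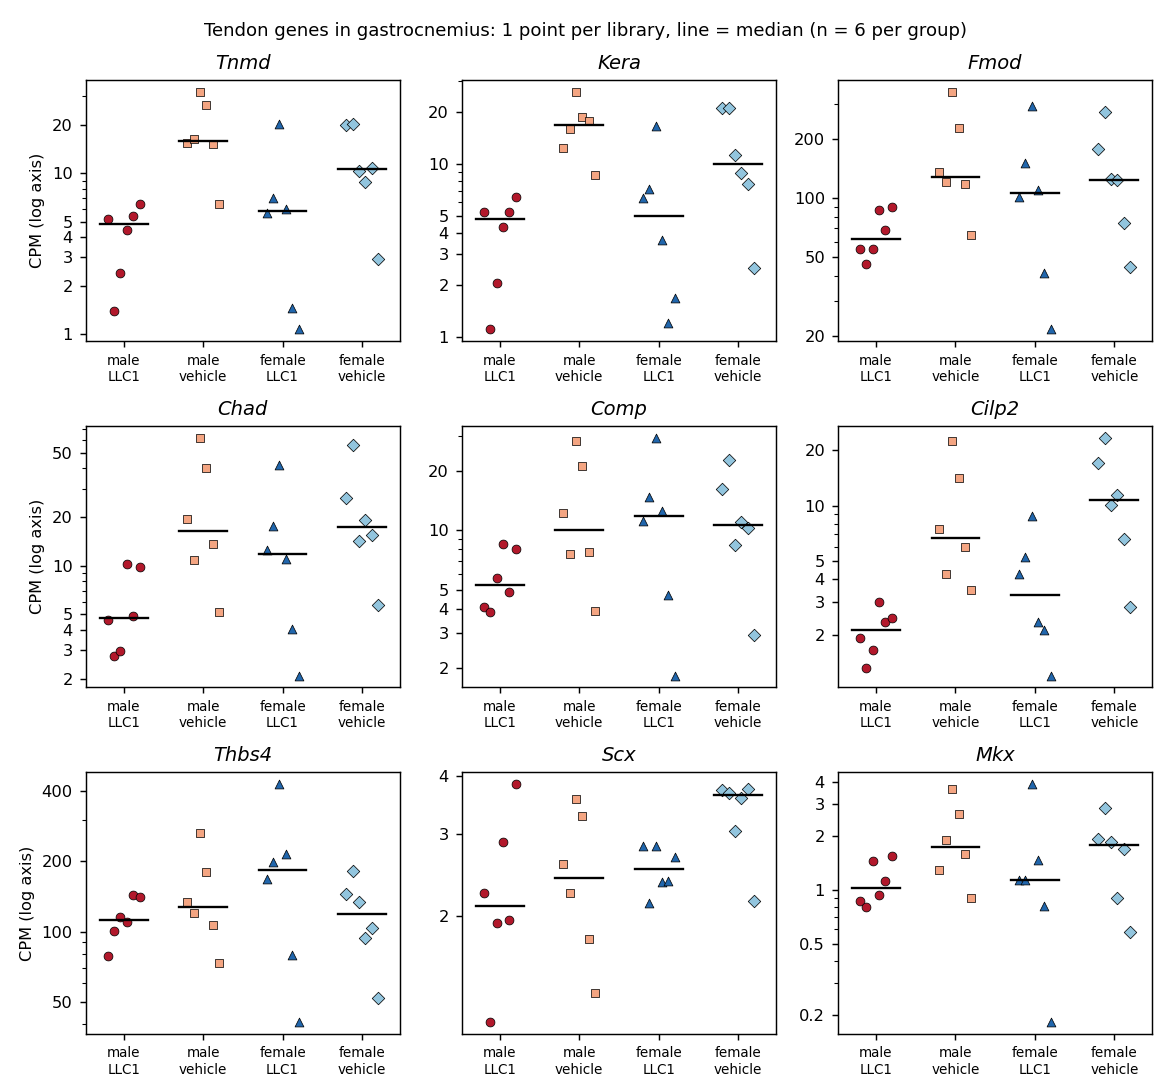
Levels of the 9 members in CPM on log axes, 1 point per library and a line at the median, in male LLC1, male vehicle, female LLC1 and female vehicle mice (n = 6 each). The male LLC1 points of Kera and Cilp2 lie wholly below the male vehicle points. One female LLC1 library, 2-1, is the highest of its group for all 9 members, though all but level with library 1-4 for Scx.

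In females, none of the 9 members passed the edgeR test (0 of 9, against 9.92% of all genes called and 4.95% called lower). At an unadjusted p under 0.05 there was 1, Cilp2, and DESeq2 and limma-voom each called 1 member, Cilp2. Cilp2 had 1.20 to 8.82 CPM (median 3.30) in LLC1 females and 2.83 to 23.3 CPM (median 10.8) in vehicle females. Its log2 fold change was -1.57 ± 0.50 with an edgeR adjusted p of 0.0502, and it passed when any 1 of 4 libraries was left out, female LLC1 2-1, female vehicle 2-3, male vehicle 1-3 or male vehicle 2-5 (adjusted p of 0.023 to 0.0467). No member's female groups were free of overlap in CPM, against 6.55% of all genes tested.

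Tnmd had 1.07 to 20.2 CPM (median 5.80) in LLC1 females and 2.94 to 20.1 CPM (median 10.6) in vehicle females, so that both groups reached the same top. Its log2 fold change was -0.82 ± 0.55 (edgeR adjusted p = 0.372). Kera had 1.19 to 16.6 CPM in LLC1 females and 2.48 to 21.1 CPM in vehicle females (-0.99 ± 0.54, adjusted p = 0.257), and Chad had 2.09 to 42.2 CPM in LLC1 females and 5.75 to 56.0 CPM in vehicle females (-0.61 ± 0.64, adjusted p = 0.594). Fmod, at 21.5 to 294 CPM in LLC1 and 44.6 to 272 CPM in vehicle females, and Comp, at 1.83 to 29.5 CPM in LLC1 and 2.94 to 22.8 CPM in vehicle females, had log2 fold changes of -0.18 ± 0.50 and 0.05 ± 0.53. Of the transcription factors, Scx had 2.13 to 2.82 CPM in LLC1 females and 2.15 to 3.74 CPM in vehicle females (-0.39 ± 0.22, adjusted p = 0.271), and Mkx, which lies on chromosome 18 from 6910459 to 7004780, had 0.183 to 3.88 CPM in LLC1 and 0.578 to 2.85 CPM in vehicle females (-0.21 ± 0.45). Thbs4 had 41.0 to 429 CPM (median 184) in LLC1 females and 51.8 to 182 CPM (median 119) in vehicle females. Its log2 fold change of 0.67 ± 0.40 was above 0 but did not pass (edgeR adjusted p = 0.313).

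The 2 sexes were not shown to differ in any member. The interaction of LLC1 with sex was called for 0 of 9 members and for 0% of all genes by edgeR. No member reached an unadjusted p under 0.05, DESeq2 and limma-voom also called 0 members, and the smallest edgeR adjusted p was 0.468, for Thbs4. Averaged over the sexes, 4 of 9 members were called lower (Cilp2, Kera, Tnmd and Chad), against 41.5% of all genes called and 20.2% called lower. Cilp2 had an averaged log2 fold change of -1.88 ± 0.37 (edgeR adjusted p = 0.000425), Kera of -1.51 ± 0.39 (0.0039), Tnmd of -1.48 ± 0.40 (0.00529) and Chad of -1.36 ± 0.46 (0.0223). The call for Chad was lost without female vehicle 1-3 or without male vehicle 1-3 (adjusted p of 0.0563 and 0.0554), and those for Fmod and Mkx were gained without female LLC1 2-1 (0.02 and 0.0231). Between vehicle males and vehicle females 0 of 9 members were called, and 0 had an unadjusted p under 0.05, against 6.23% of all genes called. The log2 differences, male minus female, ran from -0.42 ± 0.22 for Scx to 0.62 ± 0.54 for Tnmd.

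Single libraries carried the members together. Female LLC1 library 2-1 was the highest of its 6 for all 9 members, and library 2-5 the lowest for 7. For Scx, library 2-1 was all but level with library 1-4, both at 2.82 CPM. In vehicle males library 1-3 was the highest and 2-5 the lowest for all 9, and in vehicle females library 2-3 was the lowest for all 9 and 1-3 the highest for 8. In LLC1 males library 1-5 was the lowest for 8 and 2-5 the highest for 5. Within a group the highest library exceeded the lowest by up to 21.2 times in LLC1 females, for Mkx, by 11.9 times in vehicle males, for Chad, by 9.75 times in vehicle females, for Chad, and by 5.86 times in LLC1 males, for Kera.

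The biological coefficient of variation, the spread between libraries of a group beyond counting error, was 0.475 to 0.74 for 8 members and placed them at the 98.1 to 99.8 percentile of the genes tested, where the median gene had 0.15. Scx was the exception with 0.255, at the 84.3 percentile. The LLC1 effects of the members therefore had standard errors of 0.22 to 0.67 on the log2 scale in both sexes. Leaving out each of the 24 libraries in turn gave 3 to 6 members called in males and 0 to 1 in females. Tnmd, Kera and Cilp2 were called lower in males in all 24 of those fits. Without vehicle library 1-3, the male effects of 8 members moved towards 0 and 3 members were called. Scx, close to 0 throughout, then had 0.04. Without LLC1 library 2-1, the female effects ran from -1.97 for Cilp2 to 0.25 for Thbs4.

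**Figure D2:**
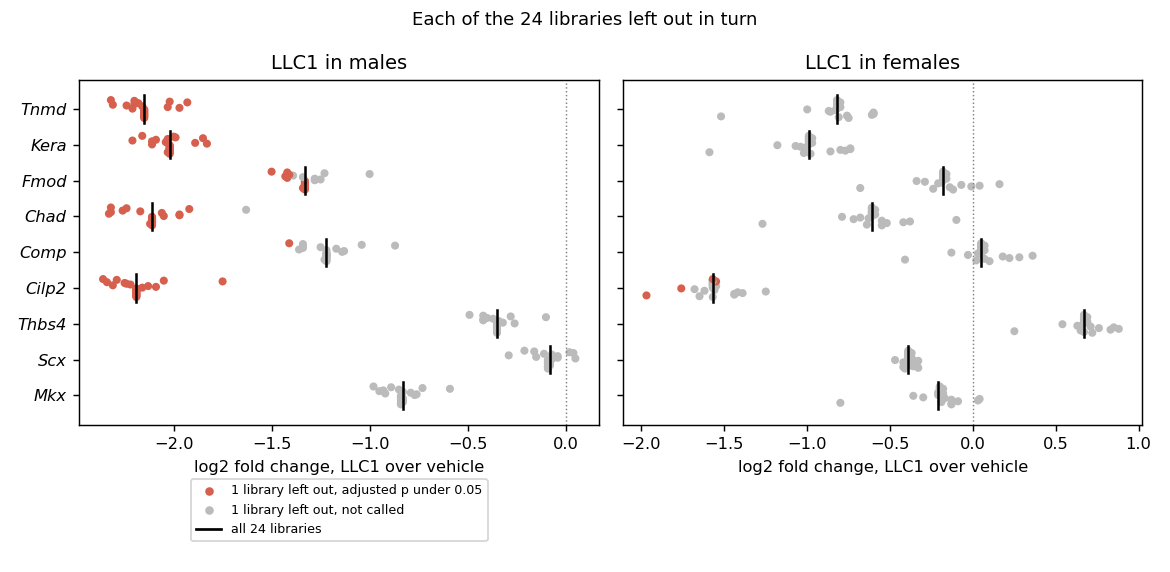
Log2 fold change of LLC1 over vehicle for each member in males and in females, with a black bar for all 24 libraries and a point for each fit that leaves out 1 library, red where the edgeR adjusted p was under 0.05. The male points of Tnmd, Kera and Cilp2 are red throughout, and in females the point farthest from the bar is, for Tnmd, Kera and Chad, the fit without LLC1 library 2-1.

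The members rose and fell with each other from library to library. On log2 CPM centred within the 4 groups, Pearson's r over 24 libraries was 0.74 to 0.97 for the 28 pairs that leave out Scx (median 0.90), and Spearman's rho was 0.70 to 0.97. For the 8 pairs with Scx r was 0.42 to 0.66 (median 0.59) and rho was 0.44 to 0.71. All 36 pairs had a Benjamini-Hochberg adjusted p under 0.05 in a two-sided permutation test that shuffles libraries within groups, with a largest adjusted p of 0.00533 for r and 0.0254 for rho. Without the 2 libraries farthest from the median of the first gene of a pair, r was 0.73 to 0.96 for the 28 pairs and at least 0.36 over all 36. Comp, Chad and Fmod were the most alike, at r = 0.97 for each of their 3 pairs (smallest p that 100000 permutations give, 1e-05). Points of such a correlation share a library and its depth.

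Outside the members, the genes most like Tnmd by the same r were Col11a1 at 0.97, a minor collagen of the fibril core, Serpinf1 at 0.94, Col12a1 at 0.93, a collagen that coats fibrils, Cpxm2 at 0.92 and Col16a1 at 0.91. The genes most like the mean of the standardised members were Cpxm2 at 0.96, Col11a1, Serpinf1 and Col8a2 at 0.95 and Wif1, a Wnt inhibitor, at 0.94. Over all 17773 genes the median r with Tnmd was -0.02 and the 99th percentile 0.78. With Spearman's rho in place of r, 2 of the top 5 were shared for Tnmd and 2 for the members' mean.

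Since the members moved together, each was also set against Fmod in the same library, as counts per 100 Fmod counts; Fmod was taken for this after the shared variation had been seen, as an abundant member. Thbs4 was higher relative to Fmod in LLC1 mice. It had 128 to 219 counts per 100 Fmod counts (median 182) in LLC1 males and 76.3 to 113 (median 94.9) in vehicle males, with no overlap. In females it had 133 to 196 (median 178) in LLC1 and 66.8 to 139 (median 95.1) in vehicle mice, where a single vehicle library reached into the LLC1 range. Cilp2 went the other way, with 2.75 to 3.50 counts per 100 Fmod counts in LLC1 males and 3.52 to 6.50 in vehicle males, and with 2.13 to 5.58 in LLC1 females and 6.35 to 9.68 in vehicle females. The groups did not overlap for Cilp2 in either sex, although in males the nearest libraries were almost level.

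Tnmd had 3.04 to 9.38 counts per 100 Fmod counts in LLC1 males and 9.27 to 13.6 in vehicle males, and 3.50 to 6.88 in LLC1 females and 6.60 to 14.5 in vehicle females, overlapping slightly in each sex. Kera had 2.38 to 9.62 in LLC1 males and 7.57 to 15.2 in vehicle males, and 2.85 to 7.77 in LLC1 females and 5.55 to 11.9 in vehicle females. Scx had 2.56 to 4.28 in LLC1 males and 1.03 to 2.10 in vehicle males without overlap, and 0.959 to 12.4 in LLC1 females around the 1.35 to 5.00 of vehicle females. On this ratio 3 of 8 members did not overlap in males (Thbs4, Scx and Cilp2), against 5.97% of all genes, and 1 of 8 in females (Cilp2), against 0.321% of all genes. Those shares were 10.3% and 6.55% in CPM. The ratio adds the spread of Fmod to genes that do not vary with it, and Fmod was taken after the members were seen to vary together. The shares on the ratio are therefore no even background for the members. In CPM Scx had a male log2 fold change of -0.08 ± 0.23, where Fmod had -1.33 ± 0.50.

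**Figure D3:**
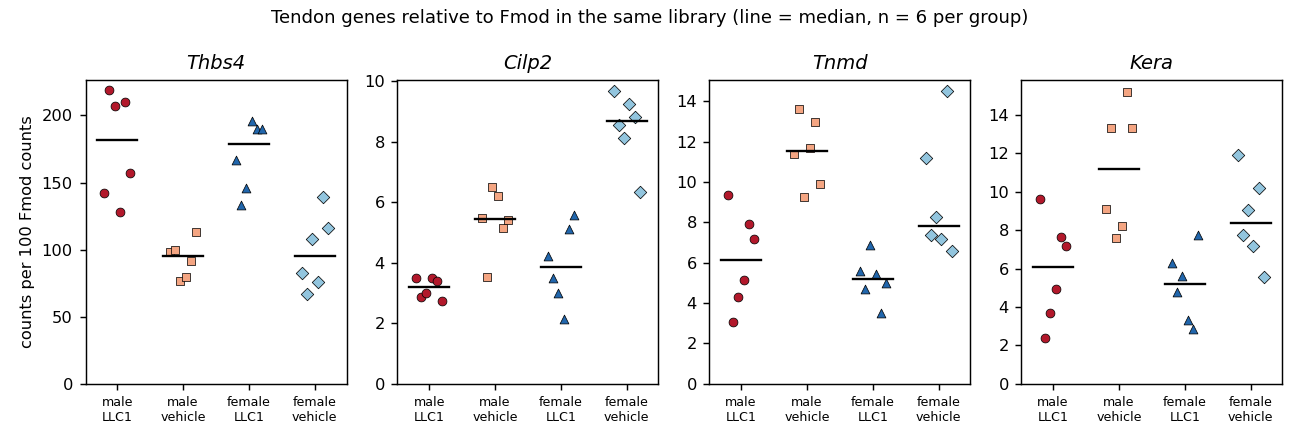
Counts of Thbs4, Cilp2, Tnmd and Kera per 100 counts of Fmod in the same library, on linear axes from 0, 1 point per library and a line at the median (n = 6 per group). Thbs4 is higher in LLC1 than in vehicle males with no overlap, and Cilp2 is lower in LLC1 mice of each sex with no overlap.

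A fit over all genes with log2 CPM of Fmod added to the 4 group means, chosen after seeing the data, gave the effect of LLC1 at equal Fmod. Across libraries of a group a member changed by 1.26 ± 0.07 (Chad), 1.06 ± 0.06 (Comp), 1.06 ± 0.10 (Tnmd), 0.96 ± 0.07 (Cilp2), 0.95 ± 0.12 (Kera), 0.82 ± 0.09 (Mkx) and 0.78 ± 0.05 (Thbs4) log2 units per log2 unit of Fmod, and Scx by 0.22 ± 0.08 (edgeR adjusted p = 0.084 for Scx, the only one of the 8 that did not pass). The spread of the LLC1 effects was smaller than without Fmod, with standard errors of 0.13 to 0.31. In females 3 of 8 members were called, against 12.9% of all genes, and in males 4 of 8, against 30.2% of all genes. Averaged over the sexes 5 of 8 were called, against 36.7% of all genes. As a covariate Fmod takes up spread mainly in genes that vary with it, as most members do. These shares are therefore no even background for the members.

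At equal Fmod Thbs4 was higher in LLC1 mice of both sexes, by 0.67 ± 0.14 log2 units in males (edgeR adjusted p = 0.00141) and by 0.73 ± 0.13 in females (0.000504), levels 1.60 and 1.66 times those of vehicle mice. Cilp2 was lower, with a log2 fold change of -0.83 ± 0.20 in males (edgeR adjusted p = 0.00378) and -1.22 ± 0.17 in females (4.9e-05), and so was Tnmd, with -0.81 ± 0.25 in males (0.017) and -0.80 ± 0.22 in females (0.0217). Kera was lower in males (-0.93 ± 0.31, edgeR adjusted p = 0.0266) and had -0.81 ± 0.28 in females (0.0606, not called). Chad, Comp, Scx and Mkx did not pass in either sex; Comp had 0.24 ± 0.17 in males and 0.23 ± 0.15 in females, and Scx had 0.19 ± 0.23 in males and -0.28 ± 0.20 in females. Averaged over the sexes Chad was called lower as well (-0.38 ± 0.13, edgeR adjusted p = 0.0287).

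The calls for Thbs4 and Cilp2 at equal Fmod held in all 24 fits that leave out 1 library, in both sexes. That for Tnmd in females was lost without LLC1 1-5 or vehicle 2-2 (adjusted p of 0.053 and 0.0678), and that for Kera in males was lost without any of 5 libraries, female LLC1 2-5, male LLC1 2-1 and male vehicle 1-2, 2-4 and 2-5 (0.0513 to 0.0674). The averaged call for Chad was lost without any of 5 libraries, female LLC1 1-5, 2-1 and 2-3 and female vehicle 2-2 and 2-3 (0.0526 to 0.078), and with no expression filter (0.0549), and its value was 0.35 ± 0.25 with Tnmd in place of Fmod (0.331). In males Fmod itself differed, and its LLC1 and vehicle levels overlapped only between 64.6 and 89.7 CPM, so the adjustment leans on a slope shared by all 4 groups. With only the 12 male libraries in the fit none of the 8 members was called (edgeR; Thbs4 0.59 with adjusted p = 0.0731, Cilp2 -0.57 with 0.108, Tnmd -0.89 with 0.134, Kera -1.17 with 0.113). With Tnmd in place of Fmod, Thbs4 was higher by 1.13 ± 0.24 in males (edgeR adjusted p = 0.00336) and by 1.17 ± 0.20 in females (0.000475), whereas Cilp2 was not called (-0.36 ± 0.35 in males and -0.70 ± 0.28 in females, adjusted p of 0.494 and 0.122). Kera then had -0.17 ± 0.21 in males (edgeR adjusted p = 0.603, not called), and Comp was called higher in females (0.86 ± 0.26, 0.0357) and had 0.85 ± 0.32 in males (0.0719). Averaged over the sexes Thbs4, Comp (0.86 ± 0.23, edgeR adjusted p = 0.0105) and Fmod (0.54 ± 0.18, 0.0338) were called higher.

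**Figure D4:**
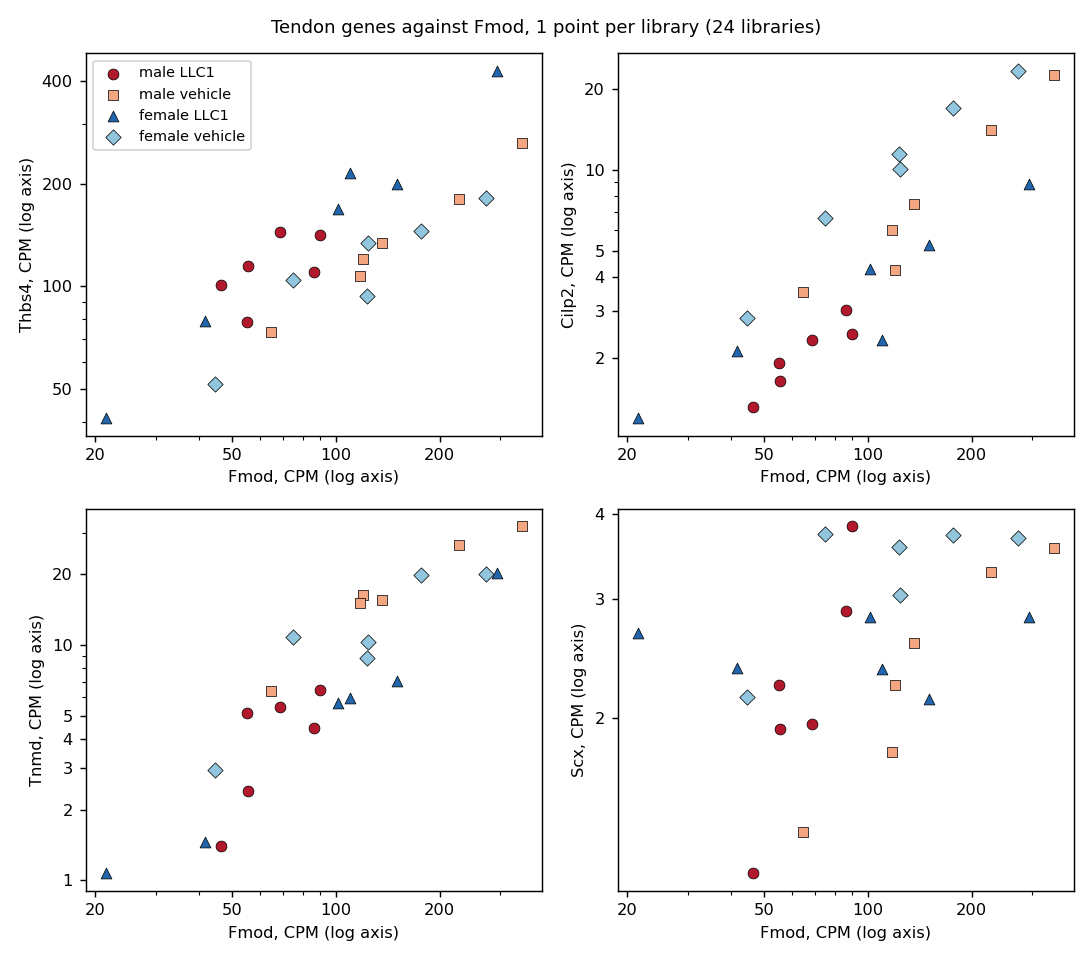
Levels of Thbs4, Cilp2, Tnmd and Scx against Fmod in CPM, all on log axes, with 1 point for each of the 24 libraries. Where Fmod levels overlap, most LLC1 points lie above the vehicle points for Thbs4 and below them for Cilp2, and Scx follows Fmod least (slope 0.22 ± 0.08).

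**Figure D5:**
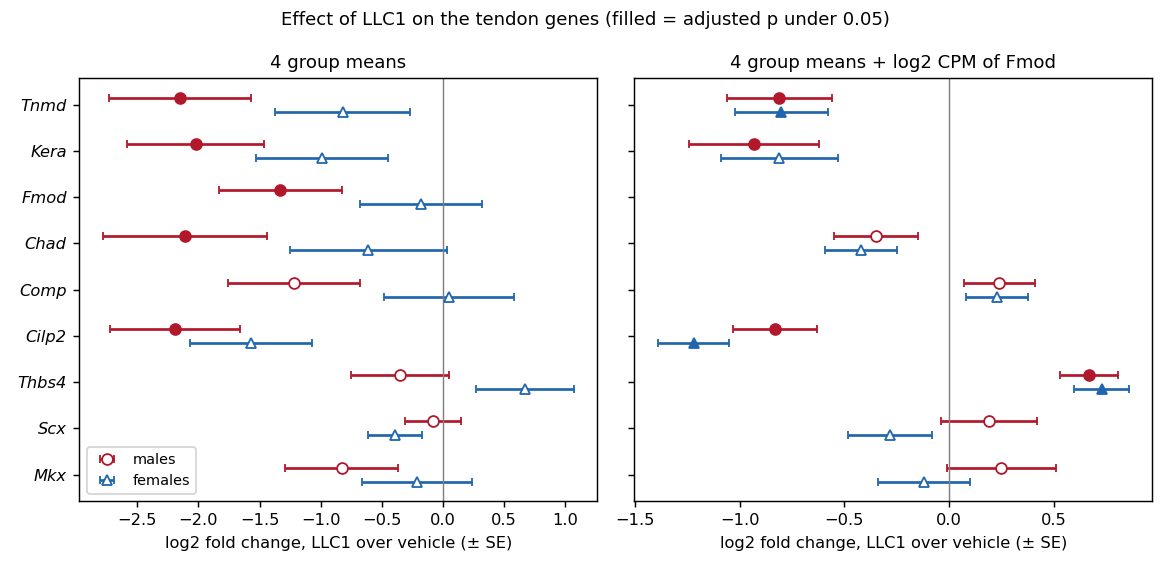
Log2 fold change of LLC1 over vehicle with its standard error for each member, in males (circles) and females (triangles), from the 4 group means and with log2 CPM of Fmod added; filled symbols mark an edgeR adjusted p under 0.05. Thbs4 lies above 0 in both sexes once Fmod is added, and Tnmd, Kera and Cilp2 lie below 0 in both panels.

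Lists of matrix genes outside the 9 members are counted beside the 16.8% of all genes called lower in males and the 4.95% called lower in females (36.3% and 9.92% called in either direction). A list of 15 collagen genes held fibrillar and fibril-associated collagens and also chains of types VI and XV. Of these 15, 14 were called lower in LLC1 males (median log2 fold change -1.55, against 0.01 over all genes) and 9 in LLC1 females (median -0.96, against -0.01). Col5a3, Col5a1 and Col6a2 had the lowest adjusted p in both sexes. Col5a3, a chain of type V collagen, had -1.31 ± 0.19 in males (edgeR adjusted p = 5.2e-05) and -1.63 ± 0.19 in females (6.58e-06). Their summed level was 293 to 880 CPM in LLC1 males against 1600 to 4171 CPM in vehicle males, and 440 to 1517 CPM in LLC1 females against 1198 to 3417 CPM in vehicle females. At equal Fmod 11 of the 15 were called lower in males and 10 in females. That fit called 2438 of 17773 genes lower in males and 1193 in females, which is no even background for genes that vary with Fmod.

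Other small leucine-rich proteoglycans, the family of Fmod and Kera, had 9 of 12 listed genes tested. Of these 5 of 9 were lower in LLC1 males, where 16.8% of all genes were, among them Podn (-1.03 ± 0.15, edgeR adjusted p = 3.45e-05), Lum, the lumican gene (-1.25 ± 0.21, 0.000196), and Ecm2, and 1 of 9 in LLC1 females, where 4.95% of all genes were, Lum (-0.88 ± 0.21, 0.00983). Of 14 other thrombospondins and tendon glycoproteins 7 were lower in males, led by Dpt, the dermatopontin gene (-0.93 ± 0.19, 0.000869), Matn2 and Tnxb, and 1 in females, Dpt (-0.81 ± 0.19, 0.009). The collagen-processing and crosslinking list had 11 of 17 genes lower and 1 higher in males and 4 lower and 1 higher in females. Its leading genes in both sexes were Adamts14, a procollagen N-proteinase, with -1.66 ± 0.20 in males and -0.84 ± 0.19 in females, Bmp1, the procollagen C-proteinase, and the crosslinking enzyme Loxl2. The gene that was higher in both sexes was the crosslinking enzyme Lox.

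Of 10 matrix proteases and inhibitors tested, 2 were higher and 4 lower in males, where 36.3% of all genes were called, and 1 was higher and 1 lower in females, where 9.92% were. Adamts4, an aggrecanase, had 2.38 ± 0.48 in males (edgeR adjusted p = 0.000775), and Mmp2, a gelatinase, had -0.86 ± 0.19 in males (0.00127) and -0.69 ± 0.18 in females (0.019). Of 11 tested factors that drive or signal to the tendon lineage, 2 were lower in males, Smad3 (-0.76 ± 0.23, 0.0119) and Tgfb2 (-0.58 ± 0.18, 0.0131), a share near the 16.8% of all genes called lower. On the muscle side of the myotendinous junction 2 of 12 genes were higher and 4 lower in males, where 36.3% of all genes were called, with Nes, the nestin gene, at -0.56 ± 0.10 (0.000225), Pxn, the paxillin gene, at 0.33 ± 0.08 (0.00401) and Lamb2 at -0.28 ± 0.09 (0.0203), and 0 of 12 were called in females by edgeR.

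Markers of other cells were counted against the same background, 16.8% of all genes called lower in males and 4.95% in females. Called higher were 3462 of 17773 genes in males and 884 in females. All 8 neutrophil markers were higher in LLC1 mice of both sexes, and their summed level was 48.6 to 148 CPM in LLC1 males against 0.75 to 2.03 CPM in vehicle males, and 47.6 to 144 CPM in LLC1 females against 0.88 to 1.99 CPM in vehicle females. Of 10 markers of fibro-adipogenic progenitors, the resident fibroblasts of muscle, 7 were lower and 1 higher in males and 2 lower and 1 higher in females, and their summed level was 1539 to 1892 CPM in LLC1 males against 1951 to 2570 CPM in vehicle males, and 1205 to 2111 CPM in LLC1 females against 1723 to 2899 CPM in vehicle females. Of 5 synovial and tendon sheath markers 1 was lower in males, Tppp3 (-0.95 ± 0.23, edgeR adjusted p = 0.00311), and in females Tppp3 was lower (-0.83 ± 0.23, 0.0239) and Htra4 higher (1.13 ± 0.28, 0.0111). Their summed level was 307 to 411 CPM in LLC1 males and 304 to 357 CPM in vehicle males, and 285 to 376 CPM in LLC1 females and 268 to 330 CPM in vehicle females. Most of that sum was Clic5, at 252 to 360 CPM in LLC1 males and 248 to 297 CPM in vehicle males. Tppp3 had medians of 14.8 CPM in LLC1 males and 33.7 CPM in vehicle males. Most of the fibro-adipogenic sum was Gsn, at 1196 to 1487 CPM in LLC1 males and 1520 to 2010 CPM in vehicle males.

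Of 13 cartilage markers 6 were tested, and 4 were lower in males and 1 in females, with Col11a2 lower in both sexes (-1.40 ± 0.28, edgeR adjusted p = 0.000775, and -1.08 ± 0.27, 0.0146). Their summed level was 6.30 to 13.0 CPM in LLC1 males against 12.9 to 32.6 CPM in vehicle males, and 10.5 to 15 CPM in LLC1 females against 13.9 to 26.0 CPM in vehicle females. By median, Col11a2 was the largest part of that sum, at 4.12 CPM in LLC1 males and 10 CPM in vehicle males. Of 7 bone markers 3 were tested, and 2 were lower in males and 1 in females, where Alpl, which is not confined to bone, was lower in both. Macrophage and adipocyte markers were called in neither sex (0 of 8 and 0 of 7, edgeR), Pmp2 was the only one of 7 Schwann cell markers called lower, and of 10 muscle fibre markers 3 were lower in males and 2 in females. Over the 24 libraries, centred within groups, the summed level of each of these lists was set against the members' mean. Pearson's r was 0.78 for macrophage, 0.74 for cartilage, 0.68 for fibro-adipogenic progenitor, 0.54 for neutrophil and 0.35 for adipocyte markers. It was 0.24 for synovial and tendon sheath, 0.20 for bone, -0.22 for Schwann cell and -0.27 for muscle fibre markers, and 0.82 for the collagens. A summed level follows mostly the most abundant genes of its list, such as Gsn and Col11a2. The part of these cell types in the members' levels was not tested.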

How the data were processed

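Raw counts of reads per gene, as deposited and not normalized, were used for 24 libraries. The libraries were made from poly(A) RNA with version 2 of the TruSeq kit and 12 PCR cycles, per the labels' protocols; the submitters' processing notes name mm10, CASAVA, STAR and featureCounts. Versions, counting options and the treatment of strand were not given in the sources used here. Without strand, antisense reads cannot be told apart. Mkx shares 4.91% of its exon length with AC148004.2, which is not in the table.

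Genes were tested with the quasi-likelihood test of edgeR 4.0.16 (limma 3.58.1, R 4.3.3) on the deposited counts: filterByExpr (17773 genes left), TMM, 4 group means over 24 libraries (20 residual degrees of freedom), Benjamini-Hochberg adjustment over all genes within a comparison and a threshold of 0.05. Standard errors follow from the F statistic. Total counts were 26.2 to 47.4 M per library, and the p-values set differences between groups against the spread between libraries. The script was tested on simulated data with known fold changes, in the female comparison only. Beyond an amount per library that the simulated members shared, the simulated spread was lower than the members' whole spread in the data. In the simulation all members had the same slope, and the amount they shared did not depend on the group. The simulation therefore did not cover the male fit at equal Fmod, where Fmod itself differed. Alternatives were DESeq2 1.42.0, limma-voom with and without sample weights, other size factors, no expression filter, 1 sex only, a replicate block and leaving out each library. The fit with Fmod or Tnmd as covariate was added after seeing the data.

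The members and all 18 lists were chosen with earlier results of these data known. All 9 members are named. From each other list up to 3 called genes of lowest adjusted p are named, with the 5 genes most like Tnmd and the members' mean, and defining markers of other cell types. Lox, Alpl, Clic5, Gsn and AC148004.2 were named after their values were seen. Over the few full title numbers that 2 groups share, the deviations of same-numbered libraries had r of -0.167 to 0.296. One result among the tendon lineage factors in females is not reported here.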

Additional observations from a re-analysis of the deposited data

Results flagged for a closer look

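In LLC1 females, library 2-1 stood far above the other 5 for a pair of members. Tnmd had 20.2 CPM there, against 7.05 CPM in the next library and 1.07 CPM in the lowest, a gap of 0.688 of the whole range. Mkx had 3.88 CPM in the same library, a gap of 0.654 of the range. Both gaps pass Dixon's 95% critical value for 6 samples. Of 36 sets checked (9 members in 4 groups) 2 passed, both in this library, and chance alone flags about 1 in 20. Library 2-1 was the highest of its group for all 9 members, though all but level with library 1-4 for Scx, so the 2 values are not independent.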

How the results depend on the processing

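The 5 male calls kept their direction in every alternative run, but their number depended on the fit: 5 by default, DESeq2 and other size factors, 4 with limma-voom or no expression filter, 3 with sample weights and 7 with only the 12 male libraries. In females the default gave 0 members and DESeq2, limma-voom and limma-voom with sample weights gave 1 each. At equal Fmod the default gave 3 members in females, 4 in males and 5 averaged; sample weights or only the 12 female libraries gave 5 in females, only the 12 male libraries gave 0 in males, and Tnmd in place of Fmod gave 2 in females, 1 in males and 3 averaged. The cause of these shifts was not tested.

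What the title numbers stand for is not given, and pairing by the first number alone was not checked. In each sex the LLC1 and vehicle groups differ in how many libraries carry each first number. With the full number as a replicate block 0 members were called in females, 1 in males and 1 averaged, and with the first number 0 in females, 3 in males and 3 averaged. Both blocks lost the male calls for Chad and Fmod (edgeR adjusted p of 0.0768 and 0.145 with the first number). The full number also lost those for Tnmd and Kera (0.108 and 0.105). At equal Fmod the block by full number gave 2 in females, 2 in males and 4 averaged. The interaction and the sex difference in vehicle mice gave 0 in both blocks. Under the full block 5 values changed sign, to 0.14 for Mkx, 0.19 for Chad and 0.32 for Fmod in females, 0.09 for Scx in males and 0.02 for Scx averaged, and at equal Fmod averaged Scx became 0.11; under the first-number block Fmod in females became 0.01. None of these was called in the default fit.

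Leaving out each library gave 0 to 1 members in females, 3 to 6 in males, 3 to 6 averaged, and at equal Fmod 2 to 4 in females, 3 to 4 in males and 4 to 5 averaged. No called member changed sign when a library was left out. Members whose sign turned were near 0: in females Mkx (-0.80 to 0.04), Comp (-0.41 to 0.36) and Fmod (-0.68 to 0.16); in males Scx (-0.29 to 0.05); averaged Thbs4 (-0.05 to 0.29); between the sexes in vehicle mice Comp (-0.15 to 0.48), Cilp2 (-0.72 to 0.02), Chad (-0.32 to 0.66) and Fmod (-0.01 to 0.64); at equal Fmod Mkx in females (-0.29 to 0.07), Scx in males (-0.02 to 0.32), Scx averaged (-0.15 to 0.02) and Mkx averaged (-0.07 to 0.20).

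Among the other settings, limma-voom gave -0.19 for Comp in females, and sample weights gave 0.04 for Scx in males and -0.11 for Chad between the vehicle sexes. At equal Fmod the 12 male libraries alone gave 0.06 for Chad. With Tnmd as covariate Mkx had 0.40 in females, Chad 0.32 in females, 0.38 in males and 0.35 averaged, and Scx 0.15 averaged. Chad averaged was the only one of these values called in the default fit. Depth limits Mkx most, with counts down to 7.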
